A study of Mus musculus with 180 samples.

Results

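Toll-like receptors are membrane proteins that recognize microbial molecules, and Cd14 is the co-receptor that hands lipopolysaccharide (LPS) to Tlr4. The genes described are Tlr1, Tlr2, Tlr3, Tlr4, Tlr6, Tlr7, Tlr8, Tlr9, Tlr13 and Cd14, taken by their symbols from the table of normalized exonic reads. They are 10 of the 45070 genes listed there. Tlr4 with Cd14 senses LPS, and Tlr2 senses bacterial lipopeptides as a dimer with Tlr1 or Tlr6 at the cell surface. Tlr3, Tlr7, Tlr8, Tlr9 and Tlr13 sit in endosomes and sense nucleic acids. Most of these receptors signal through the adaptor Myd88, Tlr3 signals through Ticam1 (TRIF), and Tlr4 uses both.

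The samples were bone marrow-derived macrophages (BMDMs), cultured from the marrow of wild-type male mice of the C57/BL6 strain aged 6 to 8 weeks. Every culture, DMSO included, received its clinical kinase inhibitor (CKI) or the vehicle DMSO for 1 h and then LPS at 10 ng/ml for 2 h. PolyA RNA-seq was carried out on 180 samples, with 3 replicates for each of 58 CKIs and 6 DMSO samples in 2 sets of 3. Each CKI was used at its own concentration, so CKIs of a class are set side by side below and not compared. No unstimulated culture is part of these comparisons, and a change is a difference between a CKI and DMSO, both with LPS. The deposited values are reads in exons that the authors scaled between samples and rounded, called normalized values here. The lowest total of normalized values in a sample was 9477340 and the highest 12273349 (median 10521148.5). The unscaled depth is not known from them.

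All 7 macrophage markers examined (Adgre1, Csf1r, Cd68, Lyz2, Mertk, Fcgr1, Itgam) were above 0 in all 6 DMSO samples. Their summed normalized value was 82123 at the lowest, 94745.5 at the median and 185730 at the highest, and Lyz2 was the most abundant with a mean of 68503. The B-cell genes Cd79a and Pax5 were at 0 in all 6, as were Mcpt8 and Fcer1a of mast cells and basophils, and Hba-a1 and Hbb-bs of erythroid cells, while Ms4a1 of B cells and Cpa3 of mast cells had means of 0.83 and 0.17. The summed value of 7 neutrophil genes was between 224 and 638, led by S100a8. Those of 4 T-cell genes and 4 conventional dendritic cell genes reached 20 and 89, led by Cd4 and Xcr1. The 4 fibroblast genes summed to between 19 and 147, led by Col1a1, and the 4 genes of plasmacytoid dendritic cells to between 1913 and 4159, led by Bst2, which macrophages also express.

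The DMSO samples were not alike. DMSO set 2 replicate 1 was the highest of the 6 for Tlr4 (1067), Cd14 (30714), Tlr1 (800), Tlr6 (503), Tlr7 (1833), Tlr8 (1068) and Tlr13 (3074). It also had the highest macrophage marker sum, 185730 against 82123 to 125135 in the other 5 samples, and the largest share of mitochondrial transcripts, 1.94%. DMSO set 1 replicate 3 was the lowest of the 6 for Tlr4 (310), Tlr1 (317), Tlr3 (150), Tlr7 (472) and Tlr8 (176). Tlr8 differed 6.07-fold between the highest and the lowest DMSO sample, Tlr7 3.88-fold and Tlr4 3.44-fold, whereas Tlr2 differed 1.27-fold. The sets themselves did not separate, since limma called 0 of 12714 genes between set 2 and set 1, or 0% (unadjusted p under 0.05: 310 genes, 2.44%). For the members no unadjusted p in this comparison was under 0.207.

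Per kilobase of exon, Cd14 was the most abundant member in DMSO, at 13422 ± 2852 (SD, n = 6) normalized values per kb. Tlr2 followed at 4970 ± 487 per kb, and both stood apart from the member next below in all 6 samples. Of the 12714 genes tested, 99.6% had a lower level per kb than Cd14 and 98.5% a lower one than Tlr2. Tlr13 (524 ± 201 per kb), Tlr7 (266 ± 123), Tlr1 (155 ± 59.7), Tlr6 (125 ± 41.7), Tlr8 (120.4 ± 60.9), Tlr4 (84.8 ± 34.1) and Tlr3 (81.6 ± 27.8) formed an order in which each overlapped the next. Tlr9 was the least abundant at 15.3 ± 3.20 per kb, and its highest sample lay below the lowest of Tlr3. Tlr4, the receptor for the LPS used as stimulus, thus stood 8th of 10 in level per kb and its co-receptor first.

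To ask which members a CKI changed, limma was fitted to log2(normalized value + 1) with DMSO as the reference for every CKI, and a pair of gene and CKI was called at an adjusted p under 0.05 over all genes tested. All 10 members passed the filter on low values, a mean of at least 10. Of the 580 pairs of member and CKI, 11 were called higher (1.90%) and 1 was called lower (0.172%). Over all genes tested the shares were 2.52% higher and 1.65% lower, and neither share of the members exceeded that of the genes at large in this fit. Of all calls 60.4% were higher, and 41.2% with median of ratios scaling. At an unadjusted p under 0.05 the members gave 54 higher pairs (9.31%) and 16 lower pairs (2.76%), beside 10.4% and 5.27% of all genes. The log2 fold change was above 0 in 374 of the 580 pairs (64.5%, median 0.14), against 59.4% of the pairs over all genes (median 0.06). The F test over all 58 CKIs was passed by Tlr2 (adjusted p = 2.16e-10), Cd14 (0.000259), Tlr3 (0.00528) and Tlr13 (0.0155), that is 4 of 10 members, and by 48.6% of all genes. With the replicate number as a block, 37 pairs were higher (6.38%, beside 4.60% of all genes) and 4 lower (0.690%, beside 3.08%). In that fit the higher share of the members exceeded that of all genes. Every member passed the F test there, beside 78.7% of all genes.

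The number of higher calls moved with the replicate block, with single DMSO samples and with the scaling. Without DMSO set 2 replicate 1 there were 29 higher pairs (5.00%, beside 3.94% over all genes), without set 1 replicate 1 there were 17 (2.93%, beside 2.84%), without set 2 replicate 2 there were 5 (0.862%, beside 1.30%), and without set 1 replicate 3 there were 2 (0.345%, beside 1.86%). Without set 1 replicate 3 the lower pairs numbered 4 (0.690%, beside 1.70%). With median of ratios scaling there were 3 higher (0.517%, beside 1.67%) and 2 lower pairs (0.345%, beside 2.38%). Of the 12 calls, the fall of Tlr3 with Filgotinib was kept in all 25 alternatives tried and the rise of Tlr2 with Omipalisib in 24, and the other 10 were kept in between 9 and 17. Gene by gene below, the losses named for these 10 are those with 1 sample left out. Leaving out a sample by itself widens the SE. A call could thus be lost with little change of the log2 fold change, as for Tlr9 with Omipalisib. With the replicate number as a block all 12 calls were kept. Of the 12 calls, median of ratios scaling ended 8, no filter 7, DMSO set 1 alone 6, set 2 alone 10 and fits of each CKI with DMSO only 8, and leaving out replicate 2 or 3 of every group ended 10 and 9. Omipalisib called 6 of the 10 members higher, beside 17.5% of all genes, and BGT226 called 2, beside 24.1%. Pimasertib, Lapatinib and Tofacitinib called 1 each higher, beside 16.0%, 18.1% and 9.02%, and Filgotinib 1 lower, beside 14.6%. Without DMSO set 1 replicate 3, Tlr2 alone of the 6 was called with Omipalisib, that is 1 of 10 members, beside 14.2% of all genes, and with median of ratios scaling Tlr2, Tlr4 and Tlr7 were, beside 13.7%. All comparisons share the same 6 DMSO samples.

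**Figure D1:**
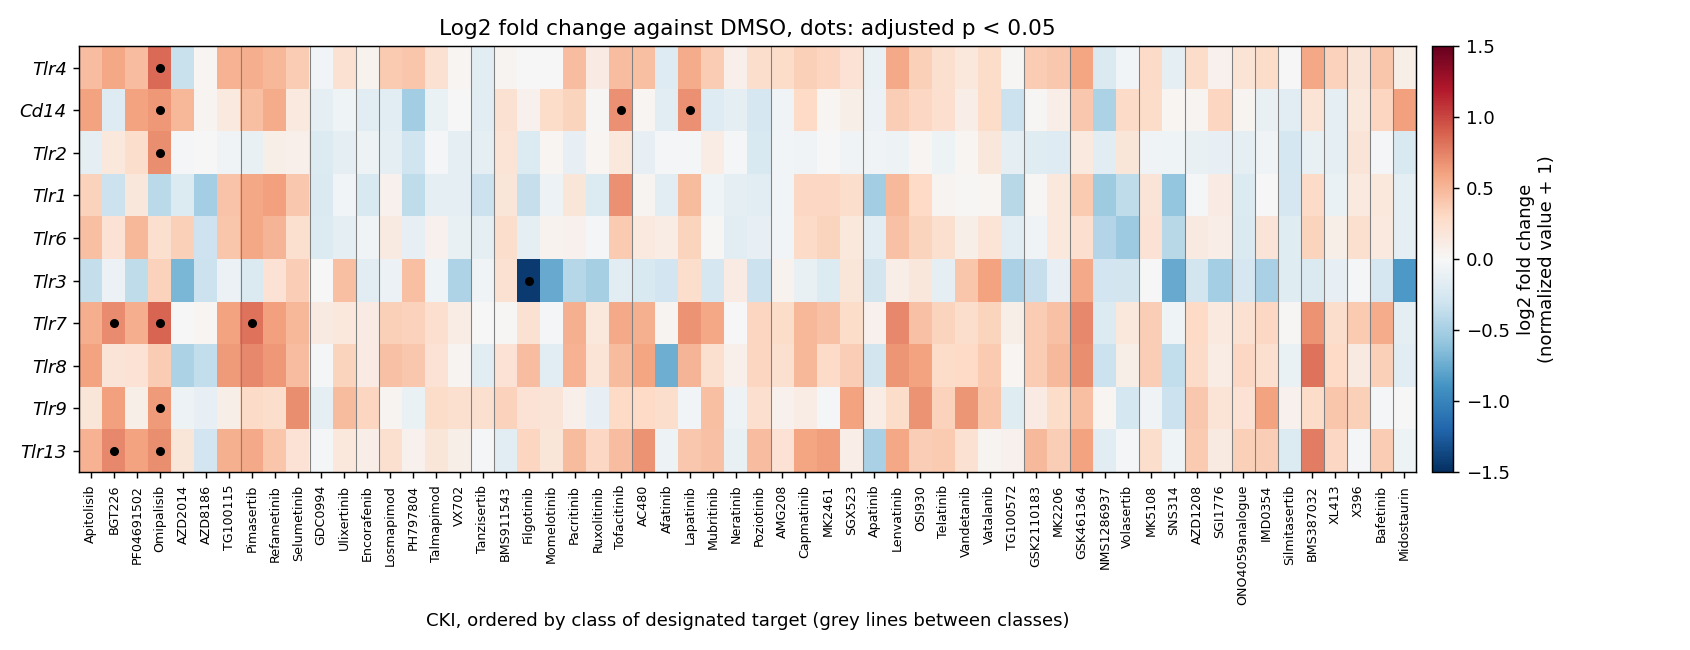
Log2 fold change of each of the 10 members (rows) with each of the 58 CKIs (columns, ordered by the class of the designated target) against the 6 DMSO samples, from log2(normalized value + 1), with black dots on the 12 called pairs. Omipalisib carries 6 of the 11 higher calls, and the lower call is Tlr3 with Filgotinib.

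Of the 12 calls, 2 held across the alternatives, apart from a minimum on the size of the change. Tlr3 fell with Filgotinib, a JAK inhibitor, to a mean of 128 ± 27.3 (SD, n = 3) from 366 ± 125 (SD, n = 6) in DMSO. Tlr2 rose with Omipalisib, an inhibitor of PI3K and mTOR, to 22934 ± 2581 (SD, n = 3) from 14190 ± 1389 (SD, n = 6).

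Tlr4 (Entrez 21898, chr4:66827551-66846581, plus strand, mm10), the receptor for LPS, had 310, 671.5 and 1067 as its lowest, median and highest normalized value in DMSO. With Omipalisib replicates 1, 2 and 3 were at 1197, 1212 and 967. Replicates 1 and 2 lay above all DMSO samples and replicate 3 lay among them. The log2 fold change was 0.85 (SE 0.26, limma adjusted p = 0.00897), the only call for Tlr4, beside 17.5% of all genes called higher with Omipalisib. The call was lost without DMSO set 1 replicate 3 (0.65, adjusted p = 0.06), without Omipalisib replicate 1 (0.80, adjusted p = 0.0512) and without Omipalisib replicate 2 (0.79, adjusted p = 0.0522). Over the 25 alternatives its adjusted p was between 0.00042 and 0.182. The other inhibitors of PI3K, mTOR or both gave log2 fold changes of 0.58 (BGT226), 0.52 (TG100115), 0.47 (Apitolisib), 0.46 (PF04691502), 0.03 (AZD8186) and −0.33 (AZD2014), none of them called. Group means for the 58 CKIs ran from 502 with AZD2014 to 1125 with Omipalisib, DMSO was 18th from the lowest of the 59 groups, and no group was apart from its neighbour in this order.

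Cd14 (Entrez 12475, chr18:36725064-36726815, minus strand), which binds LPS and passes it to Tlr4, had 17586, 21142 and 30714 as its lowest, median and highest value in DMSO. It was called higher with Lapatinib, Tofacitinib and Omipalisib. Lapatinib, an ERBB inhibitor, gave 35275, 39780 and 30916 in its 3 replicates. All 3 lay above the highest DMSO sample, replicate 3 by little. The JAK inhibitor Tofacitinib gave 38456, 38557 and 29481, of which replicate 3 was below the highest DMSO sample. Omipalisib gave 35495, 36883 and 30792, all above DMSO, again with replicate 3 close to its highest sample. The log2 fold changes were 0.68 (Lapatinib, SE 0.23, adjusted p = 0.0256), 0.69 (Tofacitinib, SE 0.23, adjusted p = 0.0451) and 0.65 (Omipalisib, SE 0.23, adjusted p = 0.0283). Over all genes, 18.1% were called higher with Lapatinib and 9.02% with Tofacitinib. Group means ran from 15554 with the p38 inhibitor PH797804 (log2 fold change −0.52, adjusted p = 0.291) to 35498 with Tofacitinib, with no group apart from its neighbour.

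None of the 3 calls for Cd14 held throughout. The call with Lapatinib was lost without DMSO set 2 replicate 2 (0.62, adjusted p = 0.0743), Lapatinib replicate 1 (0.68, adjusted p = 0.083) or Lapatinib replicate 2 (0.59, adjusted p = 0.113), with a range of 0.00419 to 0.828 over the alternatives. That with Omipalisib was lost without DMSO set 1 replicate 3 (0.60, adjusted p = 0.058), set 2 replicate 2 (0.58, adjusted p = 0.067), Omipalisib replicate 1 (0.62, adjusted p = 0.0981) or Omipalisib replicate 2 (0.59, adjusted p = 0.111), with a range of 0.0044 to 0.714. That with Tofacitinib was lost without any of DMSO set 1 replicate 2 (0.68, adjusted p = 0.0613), set 1 replicate 3 (0.64, adjusted p = 0.0827), set 2 replicate 2 (0.62, adjusted p = 0.123), set 2 replicate 3 (0.67, adjusted p = 0.0631), Tofacitinib replicate 1 (0.62, adjusted p = 0.159) or Tofacitinib replicate 2 (0.62, adjusted p = 0.216), with a range of 0.0105 to 0.732. Beside Lapatinib, the other ERBB inhibitors gave log2 fold changes for Cd14 between −0.26 (Poziotinib) and 0.03 (AC480). Beside Tofacitinib, the other JAK inhibitors gave 0.33 (Pacritinib), 0.28 (Momelotinib), 0.22 (BMS911543), 0.06 (Filgotinib) and 0.01 (Ruxolitinib). Of the inhibitors of PI3K, mTOR or both, Apitolisib gave 0.61 (adjusted p = 0.0563) and PF04691502 0.60 (adjusted p = 0.0666), with AZD2014 at 0.50, TG100115 at 0.15, AZD8186 at 0.04 and BGT226 at −0.19.

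Tlr2 (Entrez 24088, chr3:83836272-83841608, minus strand), the shared subunit of the lipopeptide receptors, had 12607, 14096 and 16015 as its lowest, median and highest value in DMSO. With Omipalisib its replicates were at 22493, 20602 and 25707. All 3 lay above every DMSO sample, and the groups did not overlap. The log2 fold change was 0.69 (SE 0.095, adjusted p = 2.02e-09, 95% interval 0.50 to 0.88). Over the 25 alternatives the log2 fold change was between 0.56 and 0.78 and the adjusted p at most 0.00372. The call was lost only where a log2 fold change of at least 1 was required as well. Tlr2 varied less between replicates than the other members, with a residual SD of 0.13 on the log2 scale, which only 3.28% of the genes tested undercut. The other inhibitors of PI3K, mTOR or both gave 0.26 (PF04691502, adjusted p = 0.0512, all 3 replicates above DMSO), 0.15 (BGT226), 0.00 (AZD8186), −0.03 (AZD2014), −0.06 (TG100115) and −0.15 (Apitolisib). Group means ran from 11541 with PH797804 to 22934 with Omipalisib, and the step to Omipalisib was the only one of 58 between neighbours that did not overlap.

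Since Tlr2 was the member with the steadiest rise, the 250 bases before its start are shown, from the minus strand at chr3:83841609-83841858 of GRCm38.p6 (RefSeq), with the κB consensus in capitals:
Tlr2: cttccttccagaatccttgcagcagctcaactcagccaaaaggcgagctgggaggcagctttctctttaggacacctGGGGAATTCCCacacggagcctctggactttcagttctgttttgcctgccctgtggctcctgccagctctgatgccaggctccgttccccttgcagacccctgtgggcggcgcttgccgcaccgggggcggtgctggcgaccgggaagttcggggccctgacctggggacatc
The capitals hold 2 overlapping matches, 173 to 164 and 172 to 163 bases before the start. Windows of this length were searched on both strands for 5 motifs, chosen after the values were seen, and 7 of the 10 members had at least 1 window, 9 in all. The κB consensus also matched once in a window of Tlr6 and once in that of Tlr3, and it is found in 23.2% of 32851 windows. The interferon-stimulated response element (TTTC, any 2 bases, TTTC) matched 2 times in a window of Tlr6 (2.98% of all windows), the PU.1 motif GAGGAAGT once in Tlr1 (2.44%), the AP-1 motif TGANTCA once in Tlr9 (6.75%) and the cyclic AMP element TGACGTCA in no window of a member (1.55%). Tlr4, Tlr7 and Cd14 had no window in the table searched. A match describes these letters and was not tested as a site.

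Tlr1 (Entrez 21897, chr5:64924680-64933558, minus strand) and Tlr6 (Entrez 21899, chr5:64953095-64960048, minus strand), the partners of Tlr2 for lipopeptides with different acyl chains, are neighbours on chromosome 5 and related in sequence, so reads could in part be shared between them. In DMSO Tlr1 had 317, 442 and 800 and Tlr6 had 197, 321.5 and 503 as lowest, median and highest value. limma called 0 CKIs for either gene. At an unadjusted p under 0.05 Tlr1 had 2 higher and 0 lower CKIs, and Tlr6 had 1 higher and 1 lower. Group means of Tlr1 ran from 304 with SNS314 to 726 with Tofacitinib (log2 fold change 0.69, adjusted p = 0.11). Those of Tlr6 ran from 242 with NMS1286937 to 494 with Pimasertib (log2 fold change 0.58, adjusted p = 0.0955). In neither order was any group apart from its neighbour.

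Tlr3 (Entrez 142980, chr8:45395665-45410619, minus strand), the sensor of double-stranded RNA, had 150, 395 and 474 as its lowest, median and highest value in DMSO. With Filgotinib its replicates were at 141, 147 and 97. All 3 lay below every DMSO sample, and 2 of them lay just below DMSO set 1 replicate 3, the low one at 150. The log2 fold change was −1.43 (SE 0.33, adjusted p = 0.000475, 95% interval −2.08 to −0.79), and 14.6% of all genes were called lower with Filgotinib. Over the 25 alternatives the log2 fold change was between −1.67 and −1.24 and the adjusted p at most 0.0214. The other JAK inhibitors gave −0.76 (Momelotinib), −0.49 (Ruxolitinib), −0.43 (Pacritinib), −0.17 (Tofacitinib) and 0.23 (BMS911543), none of them called. Midostaurin gave −0.86 with 198, 189 and 177 (adjusted p = 0.122), and SNS314 gave −0.76 (adjusted p = 0.417). Group means ran from 128 with Filgotinib to 542 with Vatalanib, and 1 of the 58 steps between neighbours, that from Filgotinib to Midostaurin, did not overlap.

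Tlr7 (Entrez 170743, chrX:167304926-167330571, minus strand), a sensor of single-stranded RNA, had 472, 975.5 and 1833 as its lowest, median and highest value in DMSO. It was called higher with Omipalisib, Pimasertib and BGT226. Omipalisib gave 1987, 1903 and 1446, with replicates 1 and 2 above all DMSO samples. The MEK inhibitor Pimasertib gave 2202, 1422 and 1560, and BGT226, an inhibitor of PI3K and mTOR, gave 2097, 1748 and 1060. With Pimasertib and BGT226 replicate 1 alone lay above DMSO, and all 3 CKIs overlapped it. The log2 fold changes were 0.87 (Omipalisib, SE 0.28, adjusted p = 0.0149), 0.82 (Pimasertib, SE 0.28, adjusted p = 0.0299) and 0.71 (BGT226, SE 0.28, adjusted p = 0.0466). Over all genes, 16.0% were called higher with Pimasertib and 24.1% with BGT226. The other MEK inhibitors gave 0.62 (Refametinib) and 0.50 (Selumetinib), and TG100115, PF04691502, Apitolisib, AZD8186 and AZD2014 gave 0.60, 0.55, 0.55, 0.03 and 0.01, none of them called. The F test was not passed by Tlr7 (adjusted p = 0.213), but with the replicate number as a block every member passed it.

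None of the 3 calls for Tlr7 held throughout. With Omipalisib the call was lost without DMSO set 1 replicate 3 (0.67, adjusted p = 0.0823), Omipalisib replicate 1 (0.79, adjusted p = 0.0863) or Omipalisib replicate 2 (0.82, adjusted p = 0.0692), with a range of 9.93e-05 to 0.265 over the alternatives. With Pimasertib it was lost without DMSO set 1 replicate 3 (0.61, adjusted p = 0.115), set 2 replicate 2 (0.72, adjusted p = 0.0872), Pimasertib replicate 1 (0.63, adjusted p = 0.167) or Pimasertib replicate 3 (0.88, adjusted p = 0.0813), with a range of 0.00105 to 0.515. With BGT226 it was lost without DMSO set 1 replicate 3 (0.50, adjusted p = 0.195), set 2 replicate 2 (0.61, adjusted p = 0.107), set 2 replicate 3 (0.69, adjusted p = 0.0652), BGT226 replicate 1 (0.50, adjusted p = 0.304) or BGT226 replicate 2 (0.63, adjusted p = 0.154), with a range of 0.000773 to 0.396.

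Tlr8 (Entrez 170744, chrX:167241123-167264329, minus strand), the neighbour and close relative of Tlr7 on the X chromosome, had 176, 607 and 1068 as its lowest, median and highest value in DMSO. Reads could in part be shared between Tlr7 and Tlr8. limma called 0 CKIs for Tlr8, and at an unadjusted p under 0.05 there were 2 higher and 1 lower. Group means ran from 326 with Afatinib (345, 238 and 395, log2 fold change −0.73, adjusted p = 0.134) to 954 with the CDK inhibitor BMS387032 (1267, 843 and 751, log2 fold change 0.81, adjusted p = 0.209). All 3 replicates of both CKIs but replicate 1 of BMS387032 lay within the range of DMSO. The residual SD of Tlr8 was 0.51 on the log2 scale, larger than that of the other members.

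Tlr9 (Entrez 81897, chr9:106222598-106226876, plus strand), the sensor of unmethylated CpG DNA, had 34, 57.5 and 62 as its lowest, median and highest value in DMSO. With Omipalisib its replicates were at 81, 80 and 84, all above DMSO. The log2 fold change was 0.64 (SE 0.25, adjusted p = 0.0464), on a scale with a pseudocount of 1 that understates changes of low genes. The call was lost without DMSO set 1 replicate 3 (0.60, adjusted p = 0.0827), set 2 replicate 3 (0.52, adjusted p = 0.132), or any of Omipalisib replicates 1, 2 and 3 (0.64, 0.65 and 0.62, adjusted p = 0.114, 0.103 and 0.114), with a range of 0.0294 to 0.37 over the alternatives. BGT226 gave 63, 77 and 106, also all above DMSO, and was not called (0.61, adjusted p = 0.0509). The other inhibitors of PI3K, mTOR or both gave between −0.12 (AZD8186) and 0.18 (Apitolisib). Group means ran from 41.7 with SNS314 to 86.0 with Selumetinib (70, 95 and 93, log2 fold change 0.70, adjusted p = 0.778), with no group apart from its neighbour. Selumetinib, OSI930 (75, 98 and 79, 0.67, adjusted p = 0.216) and Vandetanib (74, 114 and 67, 0.66, adjusted p = 0.98) thus lay above DMSO in all 3 samples with larger changes than Omipalisib and were not called, as p-values are adjusted within each CKI.

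Tlr13 (Entrez 279572, chrX:106143275-106160493, plus strand), which in mice recognizes bacterial ribosomal RNA, had 1173, 2085.5 and 3074 as its lowest, median and highest value in DMSO. With BGT226 its replicates were at 4070, 3977 and 2125, and with Omipalisib at 3480, 3711 and 2489. With both CKIs replicates 1 and 2 were above all DMSO samples and replicate 3 was among them. The log2 fold changes were 0.73 (BGT226, SE 0.26, adjusted p = 0.0251) and 0.69 (Omipalisib, SE 0.26, adjusted p = 0.0388). BMS387032 gave a larger change, 0.77, with 4007, 2986 and 3132, and was not called (adjusted p = 0.144). The call with BGT226 was lost without DMSO set 1 replicate 3 (0.60, adjusted p = 0.0896), set 2 replicate 2 (0.58, adjusted p = 0.0949), BGT226 replicate 1 (0.56, adjusted p = 0.189) or BGT226 replicate 2 (0.58, adjusted p = 0.155), with a range of 0.00314 to 0.437. That with Omipalisib was lost without DMSO set 1 replicate 3 (0.56, adjusted p = 0.124), set 2 replicate 2 (0.55, adjusted p = 0.136), Omipalisib replicate 1 (0.63, adjusted p = 0.147) or Omipalisib replicate 2 (0.58, adjusted p = 0.179), with a range of 0.00561 to 0.47. PF04691502, TG100115, Apitolisib, AZD2014 and AZD8186 gave 0.60, 0.53, 0.52, 0.18 and −0.28. Group means ran from 1429 with Apatinib to 3391 with BGT226.

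**Figure D2:**
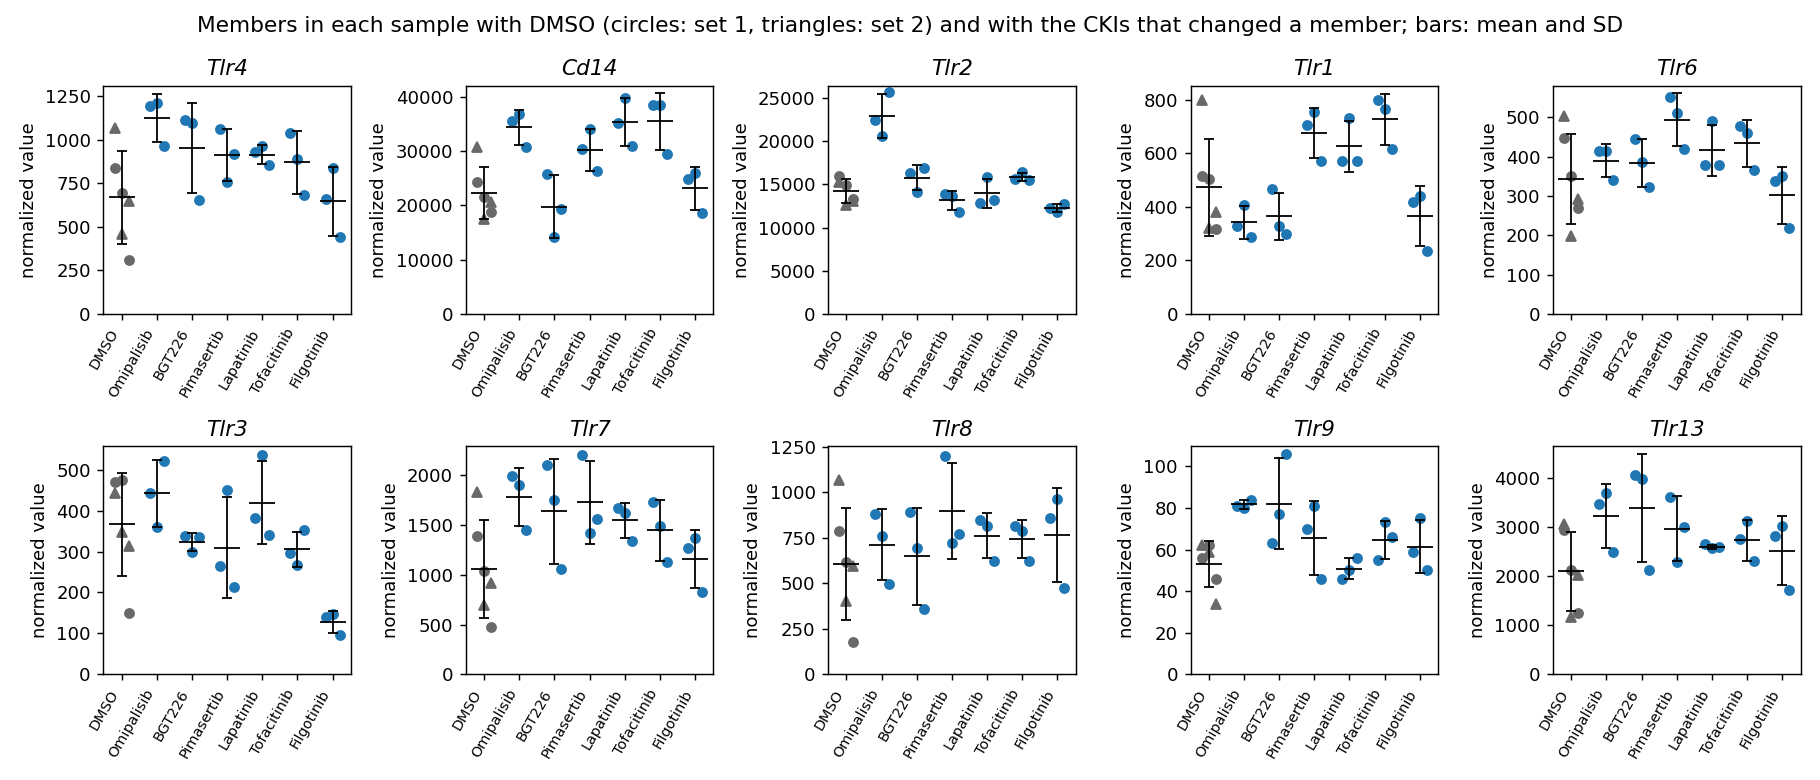
Normalized value of each member in every DMSO sample (grey, circles for set 1 and triangles for set 2) and in the 3 replicates of each CKI that called a member (blue), with bars for the mean and SD. The 3 Omipalisib samples of Tlr2 (20602 to 25707) lie above all DMSO samples, and the 3 Filgotinib samples of Tlr3 (97 to 147) lie below them.

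With Omipalisib 6 members were called higher (Tlr2, Tlr4, Tlr7, Cd14, Tlr13 and Tlr9), against 17.5% of all genes (1 member against 14.2% without DMSO set 1 replicate 3), and the median log2 fold change was 0.64 over the 10 members and 0.12 over all genes. For Cd14, Tlr2 and Tlr9 all 3 Omipalisib samples were above all 6 DMSO samples, which held for 14.8% of all genes. Tlr1, Tlr6, Tlr3 and Tlr8 were not called with Omipalisib. The median over the members was 0.56 with Pimasertib, 0.47 with Tofacitinib, 0.44 with Lapatinib, 0.21 with BGT226 and 0.03 with Filgotinib, beside 0.12, 0.17, 0.11, 0.21 and −0.04 over all genes.

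Other measures of the libraries differed from DMSO with some of these CKIs, and part of them lay within the range of DMSO. The median share of mitochondrial transcripts was 0.989% in DMSO, 1.95% with Omipalisib, 1.70% with BGT226, 3.45% with Pimasertib, 2.64% with Lapatinib, 2.57% with Tofacitinib and 1.77% with Filgotinib. The median total of normalized values was 10331211 in DMSO and 11834886, 10932955, 11377060, 11686880, 11826918 and 10272455 with these CKIs in the same order. The macrophage marker sum was 101106 to 147777 with Omipalisib, 97887 to 170759 with BGT226, 161899 to 195467 with Pimasertib, 167272 to 205143 with Lapatinib, 121174 to 200934 with Tofacitinib and 105803 to 164386 with Filgotinib. The neutrophil sum was 170 to 280 with Omipalisib, 178 to 461 with BGT226, 929 to 1112 with Pimasertib, 884 to 1133 with Lapatinib, 474 to 1391 with Tofacitinib and 435 to 691 with Filgotinib. The sum of the conventional dendritic cell genes was 115 to 161 with Omipalisib, 76 to 88 with BGT226, 83 to 126 with Pimasertib, 67 to 115 with Lapatinib, 89 to 122 with Tofacitinib and 43 to 63 with Filgotinib. That of the plasmacytoid dendritic cell genes was 3885 to 5892, 2896 to 4885, 4049 to 5414, 4949 to 5278, 4088 to 4832 and 2877 to 4646 in the same order. The fibroblast sum reached 222 with Tofacitinib and at most 85 with the other 5, and the T-cell sum at most 18 with any of the 6. In bulk samples, fewer cells of a type and less RNA per cell cannot be told apart, and the part of the marker sums in the results was not tested.

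The total and the mitochondrial share were each tried as a further term, together with the replicate number. With the replicate number alone, 37 member pairs were called higher and 4 lower (6.38% and 0.690%, beside 4.60% and 3.08% of all genes). With the total, 9 member pairs were called higher and 13 lower (1.55% and 2.24%, beside 2.25% and 2.66% of all genes), so that the balance of the members turned. With the mitochondrial share it was 13 and 8 (2.24% and 1.38%, beside 1.94% and 2.26%). With the total, the log2 fold change of Cd14 was 0.06 with Omipalisib (adjusted p = 0.714), 0.08 with Lapatinib (adjusted p = 0.828) and 0.13 with Tofacitinib (adjusted p = 0.732), and these calls were lost. The calls of Tlr7 with Pimasertib (0.46, adjusted p = 0.0695), Tlr9 with Omipalisib (0.61, adjusted p = 0.0565) and Tlr13 with Omipalisib (0.46, adjusted p = 0.0871) were lost as well. With the mitochondrial share, those of Cd14 with Lapatinib (0.37, adjusted p = 0.156) and Tofacitinib (0.39, adjusted p = 0.22) and of Tlr7 with Pimasertib (0.29, adjusted p = 0.515) were lost. The calls of Tlr2, Tlr4 and Tlr7 with Omipalisib, of Tlr7 and Tlr13 with BGT226 and of Tlr3 with Filgotinib were kept in both. The total was measured after treatment. It was 11545879 to 11863621 with Lapatinib, 11043189 to 12088642 with Omipalisib and 10999417 to 11868376 with Tofacitinib, against 9481416 to 11094387 in DMSO. A term for the total can thus take up a change with these 3 CKIs, and the total and the CKI cannot be told apart.

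The members also differed between the replicate numbers over all 59 groups. Those of number 2 were lower than those of number 1 for 9 members, beside 26.0% of all genes, and Tlr9 was higher (log2 difference 0.17, adjusted p = 0.014), beside 43.9% of all genes. Those of number 3 were lower than those of number 1 for the same 9, beside 32.4% of all genes, from −0.12 for Tlr2 (adjusted p = 2.4e-07) to −0.72 for Tlr8 (adjusted p = 5.93e-18). Tlr9 gave −0.01 (adjusted p = 0.946).

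The other genes of Toll-like receptor signalling were counted from a list of 54, of which 50 were tested and Lbp, Tlr11, Tlr12 and Il1rl1 were below the filter. Of the 2900 pairs of gene and CKI, 69 were called higher (2.38%) and 66 lower (2.28%), beside 2.52% and 1.65% over all genes, and 28 of the 50 genes passed the F test, beside 48.6% of all genes. With median of ratios scaling the higher calls over the pathway list were 46 and the lower calls 89, beside 1.67% and 2.38% of all genes. Without DMSO set 2 replicate 1 there were 107 higher pairs (3.94% of all genes), without set 1 replicate 3 there were 40 (1.86%), and without set 2 replicate 2 there were 36 higher and 38 lower (1.30% and 1.07%). The genes of LPS recognition beside Tlr4 and Cd14 had 10 higher and 0 lower pairs among 290 (34 and 0 at an unadjusted p under 0.05). The calls fell on Cd180, the Tlr4-like surface receptor, Ly86, its partner, and Ly96, which encodes the MD-2 subunit of the LPS receptor, while Itgam and Itgb2 had 0. Of these 5 genes Cd180 alone passed the F test (adjusted p = 0.000906), with Ly86 at 0.36 and Ly96 at 0.148. At an unadjusted p under 0.05 the shares over all genes were 10.4% higher and 5.27% lower. The TIR adaptors had 6 higher and 16 lower pairs among 290, the kinases and ubiquitin ligases 19 and 21 among 928, the transcription factors 11 and 7 among 348, and the negative regulators 15 and 22 among 522. Genes of receptor folding, trafficking and processing had 8 higher and 0 lower among 464 (28 and 3 at an unadjusted p under 0.05). Tlr5, the flagellin receptor, had 0 of either among 58 (1 and 1 at an unadjusted p under 0.05).

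The 2 genes of the list with the most lower calls were Myd88 and Tnfaip3. Myd88, the adaptor of most Toll-like receptors, fell with 10 CKIs. Its lowest, median and highest values in DMSO were 3534, 3703.5 and 4548, and with Filgotinib its replicates were at 2479, 2161 and 2497, all below DMSO (log2 fold change −0.71, SE 0.12, adjusted p = 3.89e-06). BGT226 gave 2454, 2073 and 2891 (−0.66, adjusted p = 5.55e-06) and Omipalisib gave 2861, 2571 and 3460 (−0.40, adjusted p = 0.00969). Myd88 thus fell with the CKI that called 6 members higher (1 without DMSO set 1 replicate 3). Of the 12714 genes tested, 1037 were called lower with Omipalisib and 803 with BGT226. Tnfaip3, the deubiquitinase A20 that restrains NF-κB signalling, fell with 7 CKIs and rose with Omipalisib. With the ERBB inhibitor Afatinib it had 2813, 1911 and 2769, below the DMSO samples, which ran from 3424 to 9371 (−1.20, SE 0.17, adjusted p = 5.52e-08). With Omipalisib Tnfaip3 had 8092, 8289 and 7312, all within the range of DMSO (0.48, adjusted p = 0.0298). The most higher calls, 5 each, were shared by Cd180, Ctsl, Sigirr and Cd300lf. All 4 were called higher with Lapatinib and Omipalisib, with which 18.1% and 17.5% of all genes were. The F test was not passed by Ctsl (adjusted p = 0.175) or Sigirr (adjusted p = 0.0747). For Cd180 Omipalisib gave 635, 826 and 584, against 244 to 526 in DMSO (0.91, SE 0.26, adjusted p = 0.00421). Ctsl, a cathepsin that can cleave endosomal receptors, was at 20896, 19770 and 16046 with Omipalisib, against 7534 to 18579 in DMSO (0.74, SE 0.25, adjusted p = 0.0209). Cd300lf, an inhibitory receptor of myeloid cells, was at 262, 325 and 248, against 139 to 199 (0.68, adjusted p = 0.00169), and it fell with Filgotinib to 119, 139 and 103 (−0.52, adjusted p = 0.0223). Sigirr, an inhibitory relative of the interleukin 1 receptors, was at 29, 51 and 14, against 5 to 16 (1.28, adjusted p = 0.0127). Its values were low, and replicate 3 lay within the range of DMSO.

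Over the means of the 59 groups, members correlated with each other to different degrees. Both genes of a pair come from the same libraries under the same scaling, DMSO is among the 59 points, and no p is given. Pearson correlations of log2(normalized value + 1) were 0.93 for Tlr4 and Tlr7, 0.84 for Tlr4 and Tlr8, 0.84 for Tlr7 and Tlr13, 0.82 for Tlr1 and Tlr6 and 0.81 for Tlr7 and Tlr8. Those of Tlr4 with its co-receptor Cd14 and with Tlr2 were 0.40 and 0.32 (the latter 0.18 by Spearman), and that of Cd14 and Tlr3 was 0.02.

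Outside the members, the genes most like Tlr3 over the 59 groups were Gbp9 (0.94), Tnfsf10 (0.91) and Ddx58 (0.91), which are known as interferon-responsive genes. For Tlr4 they were Ptprc (0.90), Aff4 (0.88) and Mpeg1 (0.88), and for Cd14 Ifitm2 (0.84), Tnfaip2 (0.82) and Gm11843 (0.81). Tlr2 was most like Zfp260 (0.83), Tgoln1 (0.73) and Il1rn (0.73), with 0.76, 0.58 and 0.61 by Spearman. Tlr1 was most like Clec4a1 (0.94), Il2rg (0.89) and Btk (0.88), and Tlr6 like Pirb (0.87), Acod1 (0.86) and Slc7a7 (0.85). Among the other sensors of nucleic acids, the closest were Cd84, Qk and Vwa5a (0.90 each) for Tlr7, Arhgef6 (0.91), Samd9l (0.87) and Erap1 (0.87) for Tlr8, and Havcr2 (0.91), Gask1b (0.89) and P2ry10b (0.88) for Tlr13. For Tlr9 the highest correlations were lower, with Tapbp (0.57), Acin1 (0.56) and Fmn1 (0.56). Within the samples of replicate number 1, 2 and 3 taken alone, Tlr9 gave 0.37, 0.45 and 0.38 with Tapbp, 0.35, 0.26 and 0.42 with Acin1 and 0.35, 0.46 and 0.32 with Fmn1, while Tlr2 and Tgoln1 gave 0.42 within number 2, and Tlr3 and Gbp9 0.91, 0.90 and 0.90.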

How the data were processed

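PolyA RNA-seq libraries were made by the SMART-seq2 protocol from LPS-stimulated BMDMs. The authors mapped single-end reads to mm10 with TopHat2 (2.1.1), keeping 1 alignment per read, removed regions of the ENCODE blacklist with bedtools (2.29.2), counted reads in RefSeq exons and scaled the samples on genes that varied little. The unit of the deposited table is thus a score, a scaled read number that the authors rounded, and no count model was applied to it. Whether the counting used strand is not given in the sources used here, and no gene of the table overlaps a member. Of its columns, 0 had no sample.

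From these values, limma (3.58.1, R 4.3.3) with a mean-variance trend was fitted once to log2(normalized value + 1) of all 180 samples, with every CKI set against the 6 DMSO samples. Genes with a mean under 10 were left out, and p-values were adjusted by Benjamini-Hochberg over the 12714 genes tested. The procedure was tested on simulated data. The replicates are described as independent biological replicates. In the main fit p-values measure the spread between them, differences between the replicate numbers included. Named CKIs were up to 3 called rises and 3 called falls per member, with the CKIs of their class beside them. Named pathway genes were the 2 with the most calls in each direction, ties included. Genes most alike were the 3 with the highest correlation to a member. Midostaurin, SNS314, OSI930, Vandetanib, BMS387032 with Tlr13, the CKIs at the ends of each range, PH797804, Ly86, Ly96, Itgam, Itgb2 and Tlr5 were named after their values were seen. Classes follow the designated targets. Some of the marker genes examined are not reported here. The members and lists were chosen with earlier results of these data known.

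Alternatives were other pseudocounts (0.5, 10), filters (none, 50) and scaling (median of ratios), either DMSO set alone, no trend, separate fits, the replicate number as a block, alone or with the mitochondrial share or the total, a minimum log2 fold change of 1, and leaving out replicates or DMSO samples. Correlations were also taken by Spearman and within each replicate number. The alternatives for the comparison of the DMSO sets with each other and for the terms between replicate numbers were chosen after seeing the data.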

Additional observations from a re-analysis of the deposited data

How the results depend on the processing

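Direction was kept for all 12 called pairs of member and CKI in all 25 alternatives, and over these the calls were kept 180 times and lost 120 times. Of the members, there were 1 lower and 11 higher pairs and 4 past the F test, and of the pathway list 66 lower and 69 higher pairs. Other pseudocounts, a filter at 50 and no variance trend changed none of these counts by over 1.5 times. With no filter there were 4 higher member pairs (0.690%, beside 1.26% of all genes) and 43 higher pathway pairs. Scaling by the median of ratios gave 2 lower and 3 higher member pairs and 89 lower and 46 higher pathway pairs. It moved the median log2 fold change of all genes by −0.19 to 0.04, over 0.1 in size for 16 CKIs, and the share of higher among all calls from 60.4% to 41.2%. DMSO set 1 alone gave 5 higher member pairs and 31 lower and 30 higher pathway pairs, and set 2 alone gave 1, 42 and 26. Fits of each CKI with DMSO only gave 3, 17 and 33, and no F test over all CKIs is possible there. Over all genes the higher shares in these 3 settings were 1.17%, 1.20% and 1.07%, and the lower ones 0.860%, 1.22% and 0.599%. A minimum log2 fold change of 1 gave 0 higher member pairs (54 at an unadjusted p under 0.05 with no minimum), 1 member past the F test, and 10 lower and 19 higher pathway pairs. With this minimum 0.707% of all genes were higher and 0.445% lower, and 22.3% passed the F test. The cause was not tested, except that fewer samples or a stricter rule define some of these settings.

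Leaving out 1 replicate of every group or 1 DMSO sample gave 1 to 4 lower and 1 to 29 higher member pairs, 2 to 5 members past the F test, and 20 to 80 lower and 24 to 107 higher pathway pairs. Over all genes 0.648% to 3.94% were higher and 0.512% to 2.14% lower, and 24.1% to 28.0% passed the F test without a replicate and 47.4% to 50.5% without a DMSO sample. Where this leaves a set of few samples, the spread is pooled over groups. Of the correlations with the genes most alike, by Spearman or within 1 replicate number, 71 differed from the main value by no more than the SD between the 3 numbers and 49 by more.

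Samples of different groups share replicate numbers, and the deviations of same-numbered samples from their group means correlated at 0.226 on average, from −0.726 to 0.797, with 71.8% of 5310 pairs over 0.1. The numbers therefore were not taken to pair the samples, although 155 of 180 samples correlated best with their own number, a hint from the data and not the design. The main fit thus left differences shared by a replicate number in the spread between replicates. Deviations of differently numbered samples correlated at −0.113 on average, a value that largely follows from centring each group of 3 on its mean. With the replicate number as a block there were 4 lower and 37 higher member pairs, 10 members past the F test, and 110 lower and 133 higher pathway pairs, and all 12 calls were kept. The member shares were 6.38% higher and 0.690% lower, beside 4.60% and 3.08% of all genes, and 78.7% of all genes passed the F test, so the higher share exceeded that of all genes here. With the mitochondrial share as well, 8 lower and 13 higher member pairs were called and 10 members passed the F test, and with the total 13, 9 and 10, beside 2.26% lower, 1.94% higher and 59.6% past the F test over all genes with the former and 2.66%, 2.25% and 72.1% with the latter. DMSO set 2 against set 1 gave 0 genes in all 4 alternatives, and 19 of 20 terms between replicate numbers were called for the members, 16 with either covariate.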
